A study of Mus musculus with 12 samples.

Results

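The 45 genes described here encode the contractile lattice of skeletal muscle and the proteins that couple its electrical excitation to calcium release. They were taken by symbol from a list of 10 roles, by a rule that uses no measured level, although the list was drawn up with earlier results of these data known, and all 45 were found among the 39179 gene identifiers of the files. The roles are myosin heavy chains (6 genes), myosin light chains (5), sarcomeric actins (2), troponins (7), tropomyosins (3), giant and thick filament proteins (7), Z-disc proteins with desmin (6), calcium release and uptake (5), creatine kinase (1) and the endplate receptor with its kinase (3). RNA was sequenced from whole calvariae, the bones of the skull vault, of C57BL/6 mice on embryonic day 17.5, in 12 libraries that form 4 groups of 3. The parents were 8 weeks old when they were mated. The dams were given vehicle or MS-275, and under each treatment the embryos were WT or Runx2+/-, which is heterozygous for the osteoblast transcription factor Runx2. MS-275, or entinostat, inhibits class I histone deacetylases, and the pregnant dams received it by intraperitoneal injection at a dose of 10 mg per kg, on day 14.5 after mating and again on day 16.5. The labels give no description of the deleted part of Runx2, and they do not tie a replicate to an embryo or litter. The p-values therefore rest on the spread between these libraries, which may be technical.

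A calvaria is bone, and the labels name no muscle, yet skeletal muscle genes were read in every library. In striated muscle, thick filaments of myosin pull on thin filaments of actin between Z-discs, and titin and nebulin set the lengths of the filaments. Troponin and tropomyosin lie on the thin filament and block myosin until calcium binds troponin C. An action potential that starts at the acetylcholine receptor of the endplate spreads into the T-tubules, where the voltage sensor Cav1.1 (Cacna1s) opens the ryanodine receptor (Ryr1) of the sarcoplasmic reticulum, and the SERCA1 pump (Atp2a1) returns the calcium to its store, where calsequestrin (Casq1, Casq2) holds it. In the mouse embryo, fibers make embryonic and perinatal myosins (Myh3, Myh8) before the adult fast ones (Myh1, Myh2, Myh4). In bulk tissue, fewer muscle cells in a sample and less RNA of these genes per muscle cell cannot be told apart.

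Counts in genes were 13307456 to 19399760 per library, and no 2 libraries were identical. Levels are given as CPM, counts scaled to a common library size with TMM (trimmed mean of M values) factors. In this scale a count of 0 allows up to 3 counts, or 0.120 to 0.279 CPM depending on the library, and such a floor covers counting error only. The 3 libraries that follow stood apart from their groups on the first principal component (72.5% of the variance): replicate 3 of Runx2+/- MS-275 lay at -106, among vehicle libraries (-122 to -92.7), while the other 5 MS-275 libraries lay at 83.9 to 140.03, and replicates 3 of WT vehicle (5.51) and of Runx2+/- vehicle (-14.5) lay between. Runx2 itself was at 42.4 to 46.1 CPM in WT vehicle, beside 32.8 to 65.3 CPM in Runx2+/- vehicle, and at 88.2 to 131 CPM in WT MS-275, beside 34.1 to 93.5 CPM in Runx2+/- MS-275, so its total count does not separate the genotypes. For each comparison below a result over the members is given with and without those 3 libraries. Values of single genes, shares and correlations mostly come from all libraries.

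Of 8 genes that mark heart muscle, 7 were at low levels. Nppa, Nppb, Mybpc3, Myl7 and Nkx2-5 reached at most 0.592 CPM in a library and were too low to test, Myh6 stayed at 0.431 to 2.54 CPM, and Tnni3 at 1.68 to 5.96 CPM. Ryr2, a ryanodine receptor of heart that neurons also make, was at 1.24 to 33.6 CPM with vehicle, 0.573 to 3.02 CPM in 5 MS-275 libraries and 15.4 CPM in replicate 3 of Runx2+/- MS-275, and none of the 3 tested was called with the drug in either genotype or in the average. Of the 45 genes, 43 passed the filter on low counts. Myh4, the adult fast IIb myosin, had 0 to 15 counts in a library, and Tnnc2, fast troponin C, had 0 to 4, so neither was tested. On GENCODE M21 (GRCm38) models, 74.0% of the exon bases of Tnnc2 also belong to Ube2c on the opposite strand, and whether the counting used strand is not stated in the labels or headers, so the near absence of Tnnc2 says little about its transcript. Genes on the opposite strand also cover 49.9% of Mybph, 21.9% of Atp2a1, 19.98% of Cacna1s, 15.5% of Ckm and 13.3% of Myh7, whose counts are uncertain to that extent.

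The 45 genes together held 7060, 12711 and 8395 CPM in the 3 WT vehicle libraries and 11597, 8292 and 4838 CPM in the Runx2+/- vehicle libraries. With MS-275 they held 7127, 3010 and 2002 CPM in WT and 12484, 12847 and 8925 CPM in Runx2+/-. Replicates 2 and 3 of WT MS-275 were the lowest of the 12 libraries, while WT MS-275 replicate 1 was within the vehicle range. Per kilobase of exon, the mean over libraries was highest for the fast regulatory light chain Mylpf (902 CPM per kb), then Acta1 (321), Actc1 (306), Tnnt3 (254), Myl1 (236), Tnni2 (146) and Myh3 (126). It was lowest, among tested members, for Mybpc2 (0.716), Musk (0.739), Myh2 (0.897) and Myh1 (0.935).

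**Figure D1:**
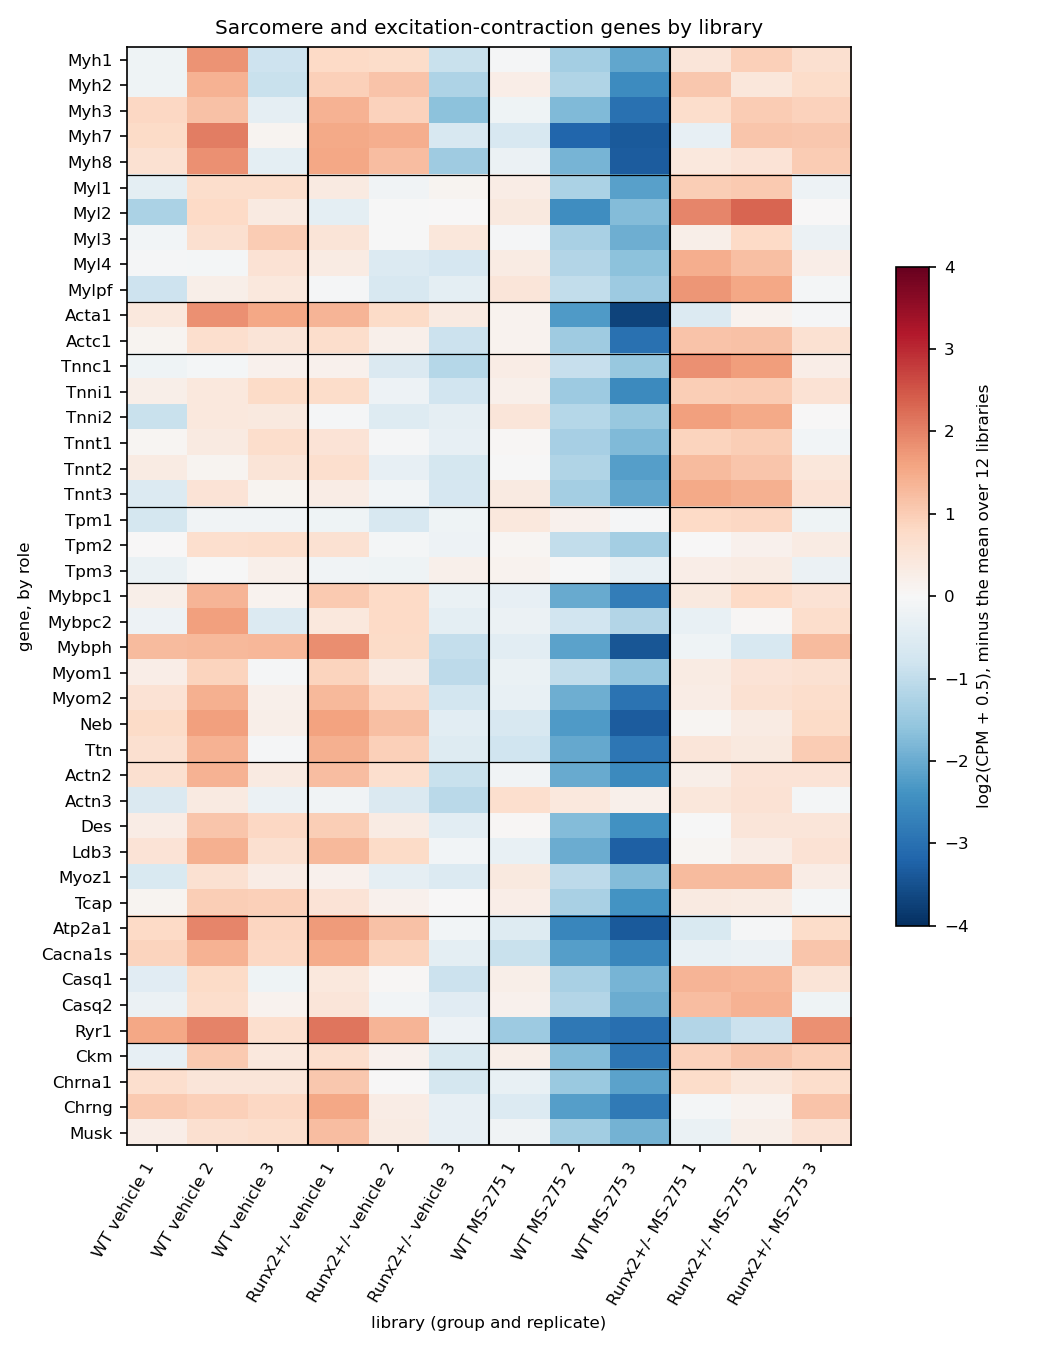
Levels of the tested genes (rows, by role) in the 12 libraries (columns, by group and replicate), as log2(CPM + 0.5) minus the gene's mean over the 12 libraries; red is above and blue below that mean. Replicates 2 and 3 of WT MS-275 are blue in nearly every row, apart from Actn3, Tpm1 and Tpm3, while the 3 Runx2+/- MS-275 libraries are mostly red.

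In WT embryos, 3 of 5 genes of calcium release and uptake (Ryr1, Cacna1s, Atp2a1), 4 of 7 giant and thick filament genes (Ttn, Neb, Myom2, Mybpc1), 2 of 3 endplate genes (Chrng, Chrna1), Ldb3 of the Z-disc and the slow myosin Myh7 were lower with MS-275. Of the 43 tested genes 11 fell and 0 rose (edgeR quasi-likelihood test, Benjamini-Hochberg adjusted over 17967 genes), which is 25.6% against 9.33% of all genes called lower and 9.67% called higher. In all, 41 of 43 members had a log2 fold change below 0, against 54.6% of all genes, with a median of -1.57 against -0.13. All 3 MS-275 libraries lay below all 3 vehicle libraries in 20 members, or 46.5% against 27.5% of all genes, and above them in 1, Tpm1, against 27.3%. The count of calls depended on the libraries: it was 12 to 20 (27.3% to 45.5% of members, against 5.82% to 24.4% of all genes) when replicate 3 of WT vehicle, of Runx2+/- vehicle or of Runx2+/- MS-275, or replicate 1 of Runx2+/- MS-275, was left out, and 21 of 44 tested (47.7%, against 31.8% of all genes) without the 3 libraries that stood apart. It was 0 when any 1 of the other 8 libraries was left out (WT vehicle 1 or 2, Runx2+/- vehicle 1 or 2, WT MS-275 1, 2 or 3, Runx2+/- MS-275 2), and in those 8 fits 0% of all genes were called lower. It was also 0 with limma-voom, where 0.00557% of all genes were lower, and with the replicate number as a block or with no filter on low counts, where 0% were. The median kept its sign each time, at its lowest without WT MS-275 replicate 1 (-2.55) and its highest without replicate 3 of that group (-1.17).

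In Runx2+/- embryos no member was called in either direction by the same test, as was true of all genes (0%). Their median was 0.18 and 19 of 43 were below 0, and 9 members (20.9%) had an unadjusted p under 0.05, against 21% of all genes, so that the share was the background's. DESeq2 called 2 higher, Tnnc1 and Tpm1 (4.65% against 4.52% of all genes). The MS-275 libraries lay wholly above the vehicle libraries in 9 members, 20.9% against 6.33% of all genes, namely Myl2, Tnnc1, Tnni2, Tnnt3, Tpm1, Actn3, Myoz1, Casq1 and Ckm, and wholly below in 1, Acta1, against 8.56%. Without replicate 3 of Runx2+/- MS-275, Ryr1 fell (log2 fold change -2.43 ± 0.73 SE, edgeR adjusted p = 0.0324) and 7 members rose: Myl2 (2.32), Tnnc1 (2.19), Mylpf (1.99), Tnni2 (1.87), Myl4 (1.57), Tpm1 (1.12) and Actn3 (1.11). Those were 2.27% and 15.9% of 44 tested members, against 14.2% lower and 18.5% higher among all genes. Without the 3 libraries that stood apart, Ryr1 (-2.90) and Cacna1s (-1.60) fell (4.55% against 28.9% of all genes) and Tpm1, Tnnc1 and Mylpf rose (6.82% against 23.9%), and the median of the members was -0.18. Leaving out Runx2+/- vehicle replicate 3 alone likewise turned the median, to -0.19.

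Averaged over the genotypes, 9 members fell (20.9% against 18% of all genes) and 2 rose (4.65% against 21.1%), so the share called lower was near the background. At an unadjusted p under 0.05 the share was 39.5% of members against 52.6% of all genes. The 9 were Ryr1, Atp2a1, Cacna1s, Neb, Ttn, Ldb3, Chrng, Acta1 and Myh7, and the 2 were Actn3 and Tpm1. Leaving out 1 library moved the 9 to between 2 (4.55% against 7.81% of all genes) and 20 (45.5% against 13%), the extremes without replicate 2 and replicate 1 of WT MS-275, and the count was 19 (43.2% against 38.2% of all genes) without the 3 libraries that stood apart.

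Among the myosin heavy chains, the thick filament motors, the embryonic isoform Myh3 had the highest level per length. Myh3 was at 985, 1261 and 433 CPM in WT vehicle, beside 1460, 1048 and 178 CPM in Runx2+/- vehicle. With MS-275 it was at 492, 165 and 69.7 CPM in WT and 901, 1122 and 1049 CPM in Runx2+/-. The vehicle groups spread widely, with replicate 3 low in both, and WT MS-275 replicate 1 lay above WT vehicle replicate 3, so the WT groups overlapped (log2 fold change -1.88 ± 0.81, adjusted p = 0.0936). Myh7, the slow myosin that is shared with the heart, had the smallest p of the role. It was at 30.8, 74.6 and 19.5 CPM in WT vehicle, against 11.3, 1.56 and 1.29 CPM in WT MS-275, with no overlap, and it fell (-3.13 ± 0.93, adjusted p = 0.0467). In Runx2+/- the 3 vehicle libraries were at 52.1, 50.1 and 11.3 CPM and the MS-275 libraries at 14.1, 39.2 and 38.3 CPM, which overlapped (-0.31 ± 0.85, adjusted p = 0.854). The perinatal Myh8 was at -2.25 ± 0.90 in WT (adjusted p = 0.0791) and the fast Myh1 and Myh2 were not called.

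As shares of the 6 heavy chain genes per kilobase, the embryonic isoform led in every library. Myh3 made up 66.1% ± 7.14 (SD, n = 3) in WT with vehicle, 64.6% ± 1.47 in Runx2+/- with vehicle, 71.1% ± 2.08 in WT with the drug and 71.2% ± 3.80 in Runx2+/- with it. Myh8 made up 31.0% ± 6.39, 32.1% ± 1.22, 26.8% ± 2.04 and 26.3% ± 3.80 in the same order. The slow Myh7 made up 2.05% ± 0.430, 2.22% ± 0.609, 0.847% ± 0.337 and 1.45% ± 0.565, and Myh1, Myh2 and Myh4 were each under 1% in every library. Embryonic and perinatal myosins thus made up nearly all heavy chain counts in the 4 groups, and the drug groups differed from the vehicle groups in Myh3 and Myh8 by less than the range within WT vehicle.

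**Figure D2:**
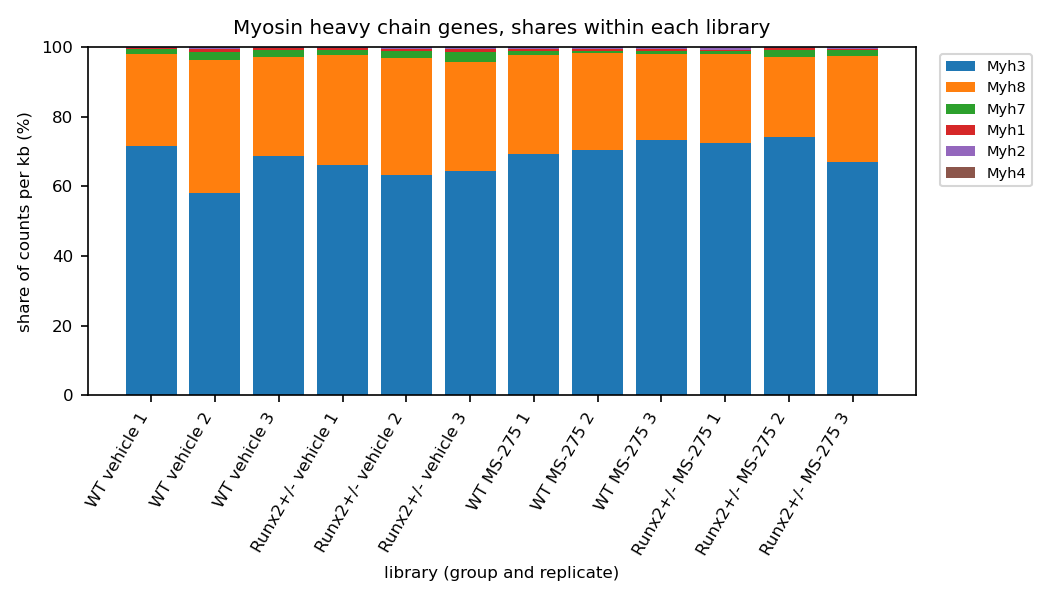
Share of each myosin heavy chain gene in the summed counts per kilobase of the 6 genes (%, stacked bars from 0 to 100), for each of the 12 libraries by group and replicate. Myh3 makes up 58.1% to 74.2% of each bar and Myh8 23.0% to 38.2%.

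The myosin light chains sit on the neck of the motor, and none of the 5 was called in a comparison of the full fit. Mylpf, the regulatory light chain of fast fibers, was at 433, 909 and 1021 CPM in WT vehicle, against 1078, 391 and 278 CPM in WT MS-275, which overlapped (-0.44 ± 0.60, adjusted p = 0.564). It was at 744, 491 and 588 CPM in Runx2+/- vehicle, against 2592, 2243 and 723 CPM in Runx2+/- MS-275 (1.61 ± 0.61, adjusted p = 0.194). Replicates 1 and 2 of Runx2+/- MS-275 were the highest of the 12 libraries, and replicate 3 was within the vehicle range. Myl3, the essential light chain of slow fibers, had the smallest p of the role in WT. It was at 5.94, 10.3 and 13.7 CPM in WT vehicle, against 6.31, 2.37 and 1.29 CPM in WT MS-275 (-1.57 ± 0.55, adjusted p = 0.0595), and at 9.62, 6.42 and 9.07 CPM in Runx2+/- vehicle, against 7.71, 11.7 and 5.44 CPM in Runx2+/- MS-275. Both pairs of groups overlapped. Myl2, the slow regulatory chain, was at 10.9, 14.0 and 14.47 CPM in Runx2+/- vehicle, against 56.5, 74.6 and 14.49 CPM in Runx2+/- MS-275, so that replicate 3 of each group all but met.

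Of the sarcomeric actins, the core of the thin filament, Acta1 is the skeletal isoform and Actc1 the cardiac isoform that fetal skeletal muscle also makes. Acta1 was at 451, 1200 and 988 CPM in WT vehicle, beside 874, 571 and 435 CPM in Runx2+/- vehicle. It was at 370, 70.7 and 25.4 CPM in WT MS-275, beside 231, 375 and 330 CPM in Runx2+/- MS-275. All 6 MS-275 libraries lay below all 6 vehicle libraries, the library that stood apart included. Acta1 was the 1 member of 43 (2.33%) with this separation, which 3.27% of all genes showed. The opposite separation was found in 0 members and 2.61% of all genes. Its averaged log2 fold change was -1.75 ± 0.56 (adjusted p = 0.0334), and within WT it was -2.50 ± 0.82 (adjusted p = 0.0527) and within Runx2+/- -1.004 ± 0.78 (adjusted p = 0.477). Actc1 was at 426, 624 and 568 CPM in WT vehicle, against 433, 148 and 49.6 CPM in WT MS-275, and at 648, 452 and 219 CPM in Runx2+/- vehicle, against 869, 901 and 603 CPM in Runx2+/- MS-275, with overlap in both genotypes.

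The share of Acta1 in the 2 actins per kilobase was 61.4% ± 7.66 (SD, n = 3) in WT with vehicle, 61.1% ± 5.67 in Runx2+/- with vehicle, 38.6% ± 7.62 in WT with the drug and 29.7% ± 7.38 in Runx2+/- with it. The 6 vehicle libraries ran from 52.7% to 67.6% and the 6 MS-275 libraries from 21.9% to 47.4%, so the drug groups did not overlap in either genotype. A ratio within a library shows only that the 2 genes changed unequally. The upstream windows of both actins are shown because the pair was read in the same libraries at unlike ratios. They are the 250 bases before the RefSeq start (GRCm38.p6), both on the minus strand and printed 5′ to 3′ on that strand, at chr8:123894776-123895025 for Acta1 and chr2:114052876-114053125 for Actc1. Capitals mark matches to the TATA box TATAAA, the E-box CANNTG and the CArG box, which serum response factor binds.
Acta1 upstream: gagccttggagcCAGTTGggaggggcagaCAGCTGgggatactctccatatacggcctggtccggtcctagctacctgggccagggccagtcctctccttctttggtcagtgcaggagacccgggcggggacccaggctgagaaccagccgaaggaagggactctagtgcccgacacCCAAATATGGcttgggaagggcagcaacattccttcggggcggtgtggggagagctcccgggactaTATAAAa
Actc1 upstream: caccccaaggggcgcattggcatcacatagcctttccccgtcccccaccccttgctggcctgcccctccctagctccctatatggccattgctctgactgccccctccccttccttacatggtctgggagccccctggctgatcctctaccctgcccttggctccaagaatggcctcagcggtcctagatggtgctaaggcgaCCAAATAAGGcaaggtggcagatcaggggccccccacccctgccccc
Each window holds 1 CArG box, which begins 73 bases before the start in Acta1 and 47 bases before it in Actc1. Acta1 also holds 2 E-boxes and a TATAAA that begins 7 bases before the start, and Actc1 holds neither.

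Troponins carry the calcium switch of the thin filament, and none of the 6 tested was called in the full fit. Tnnt3, fast troponin T, was at 223, 474 and 352 CPM in WT vehicle, against 413, 126 and 76.3 CPM in WT MS-275, which overlapped (-0.77 ± 0.58, adjusted p = 0.299). It was at 398, 301 and 202 CPM in Runx2+/- vehicle, against 928, 870 and 470 CPM in Runx2+/- MS-275, all above the vehicle libraries (1.33 ± 0.59, adjusted p = 0.23). Tnnt1, slow troponin T, had the smallest p of the role in WT. It was at 73.3, 89.3 and 114 CPM in WT vehicle, against 71.3, 27.2 and 20.2 CPM in WT MS-275, with no overlap (-1.22 ± 0.47, adjusted p = 0.0732), and at 102, 67.0 and 55.1 CPM in Runx2+/- vehicle, against 130, 137 and 63.9 CPM in Runx2+/- MS-275, with overlap. Tnnc1, the calcium sensor of slow and cardiac muscle, was at 57.3, 34.1 and 23.1 CPM in Runx2+/- vehicle, against 183, 165 and 62.2 CPM in Runx2+/- MS-275. These did not overlap, and the difference of 1.84 ± 0.53 (adjusted p = 0.181) had the smallest adjusted p of any member in that comparison. The fast share of troponin T (Tnnt3 of Tnnt1 and Tnnt3, per kilobase) was 83.4% ± 4.07 in WT with vehicle, 84.8% ± 1.33 in Runx2+/- with vehicle, 86.5% ± 2.47 in WT with the drug and 90.6% ± 0.677 in Runx2+/- with it. The fast share of troponin I (Tnni2 of Tnni1 and Tnni2) was 81.0% ± 6.20, 83.7% ± 5.41, 90.0% ± 2.57 and 87.0% ± 5.55 in that order, so fast isoforms were the greater part in all 4 groups.

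Tropomyosins run along the thin filament, and Tpm1 and Tpm3 are also made by many cells that are not muscle. Tpm1 had the highest level per length of the 3. It was at 439, 647 and 644 CPM in WT vehicle, against 949, 798 and 683 CPM in WT MS-275, which were all above, and at 626, 460 and 632.29 CPM in Runx2+/- vehicle, against 1226, 1257 and 632.31 CPM in Runx2+/- MS-275, where replicate 3 of each group all but met. Averaged over genotypes it rose by 0.67 ± 0.23 on the log2 scale (adjusted p = 0.0411), a direction that turned to -0.03 when libraries were scaled by their totals alone. Tpm2, the isoform that had the smallest p of the role in WT, was at 261, 414 and 424 CPM in WT vehicle, against 269, 131 and 101 CPM in WT MS-275 (-1.13 ± 0.38, adjusted p = 0.0553). In Runx2+/- it was at 393, 243 and 223 CPM with vehicle and 262, 291 and 322 CPM with MS-275, with overlap in both genotypes.

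The giant and thick filament proteins had 4 of 7 members lower in WT: Ttn, Neb, Myom2 and Mybpc1. All 7 had a log2 fold change below 0 in WT, with a median of -2.19, against 6 of 7 and a median of -0.15 in Runx2+/-. Titin, the molecular spring that spans from Z-disc to M-line, was at 604, 1001 and 368 CPM in WT vehicle, against 221, 93.2 and 51.8 CPM in WT MS-275. These did not overlap, and Ttn fell by 2.43 (SE 0.64, adjusted p = 0.0434). In Runx2+/- it was at 1034, 751 and 267 CPM with vehicle and 537, 498 and 769 CPM with MS-275, within one another's range (-0.19 ± 0.60, adjusted p = 0.878). Mybpc1, slow myosin-binding protein C, had the highest level per length of the role. It was at 284, 625 and 266 CPM in WT vehicle, against 194, 59.4 and 35.5 CPM in WT MS-275 (-2.02 ± 0.62, adjusted p = 0.0474), and at 499, 418 and 199 CPM in Runx2+/- vehicle, against 318, 423 and 361 CPM in Runx2+/- MS-275. The WT groups did not overlap and the Runx2+/- groups did. Nebulin, which lines the thin filament, was at 228, 418 and 155 CPM in WT vehicle, against 84.6, 27.4 and 12.9 CPM in WT MS-275. Neb fell in WT (-2.68 ± 0.72, adjusted p = 0.0434) and in the average (-1.65 ± 0.49, adjusted p = 0.0262). Myom2, an M-line crosslinker, was at 65.2, 118 and 50.1 CPM in WT vehicle, against 35.1, 10.7 and 5.18 CPM in WT MS-275 (-2.19 ± 0.68, adjusted p = 0.0491).

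At the Z-disc, where thin filaments are anchored, 1 of 6 members fell in WT and 5 of 6 were below 0. Ldb3, a scaffold that binds alpha-actinin, was at 83.1, 152 and 88.4 CPM in WT vehicle, against 46.1, 13.9 and 5.43 CPM in WT MS-275, with no overlap (-2.30 ± 0.65, adjusted p = 0.0445). In Runx2+/- it was at 140, 96.1 and 52.3 CPM with vehicle and 59.5, 68.9 and 85.0 CPM with MS-275 (-0.43 ± 0.62, adjusted p = 0.707). Actn2, an alpha-actinin of the Z-disc, had the highest level per length and was at 157, 266 and 130 CPM in WT vehicle, against 90.2, 24.2 and 16.6 CPM in WT MS-275 (-2.07 ± 0.66, adjusted p = 0.0507). In Runx2+/- it was at 237, 159 and 53.4 CPM with vehicle and 119, 146 and 148 CPM with MS-275, which overlapped. Its fast-fiber paralog Actn3 did otherwise. Actn3 was at 9.97, 19.6 and 12.7 CPM in WT vehicle, against 24.5, 20.2 and 17.6 CPM in WT MS-275. In Runx2+/- it was at 13.5, 10.0 and 6.88 CPM with vehicle, against 21.0, 22.8 and 14.1 CPM in Runx2+/- MS-275, and the average rose by 0.74 ± 0.23 (adjusted p = 0.0287). With scaling by library totals alone its averaged difference was 0.05 and the call was lost.

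Calcium release and uptake had the lowest median log2 fold change of the 10 roles in WT (-2.95, and -0.51 in Runx2+/-), and its 5 genes were split. The channels and the pump, Ryr1, Cacna1s and Atp2a1, fell in WT and in the average, and the calcium-binding store proteins Casq1 and Casq2 did not pass. Ryr1, the calcium release channel, was at 115, 156 and 62.7 CPM in WT vehicle, beside 173, 101 and 33.5 CPM in Runx2+/- vehicle. With MS-275 it was at 13.8, 4.91 and 4.40 CPM in WT and 16.8, 21.3 and 140 CPM in Runx2+/-. Replicate 3 of Runx2+/- MS-275 lay among the vehicle libraries, and the other 5 MS-275 libraries were below every vehicle library. Ryr1 fell by 3.84 in WT (SE 0.95, adjusted p = 0.0434) and by 2.31 in the average (SE 0.62, adjusted p = 0.0197), and in Runx2+/- its log2 fold change was -0.78 ± 0.84 (adjusted p = 0.615) with that library and -2.43 without it.

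Cacna1s, the voltage sensor that opens Ryr1, was at 19.1, 27.2 and 18.2 CPM in WT vehicle, against 5.21, 1.80 and 1.21 CPM in WT MS-275. It was at 29.1, 18.8 and 7.44 CPM in Runx2+/- vehicle, against 8.08, 8.38 and 22.2 CPM in Runx2+/- MS-275. The WT groups were separate and the Runx2+/- groups overlapped, and it fell in WT (-2.95 ± 0.67, adjusted p = 0.0434) and in the average (-1.73 ± 0.45, adjusted p = 0.0177). Atp2a1, the fast-fiber calcium pump, was at 69.6, 155 and 72.8 CPM in WT vehicle, against 27.4, 6.14 and 3.45 CPM in WT MS-275, and at 130, 89.8 and 36.9 CPM in Runx2+/- vehicle, against 26.1, 38.1 and 66.9 CPM in Runx2+/- MS-275. It fell in WT (-2.998 ± 0.78, adjusted p = 0.0434) and in the average (-1.98 ± 0.53, adjusted p = 0.019). Cacna1s and Atp2a1 kept the averaged call under all 19 alternatives, and Ryr1 lost it under 3. Casq2, the calsequestrin with the highest level per length of the role, was at 129, 249 and 167 CPM in WT vehicle, against 172, 67.6 and 37.7 CPM in WT MS-275 (-0.97 ± 0.57, adjusted p = 0.186), and at 212, 142 and 110 CPM in Runx2+/- vehicle, against 361, 401 and 135 CPM in Runx2+/- MS-275 (0.95 ± 0.56, adjusted p = 0.352). Casq1 was at 26.0, 62.2 and 31.6 CPM in WT vehicle, against 42.4, 14.5 and 9.49 CPM in WT MS-275, and at 48.6, 37.0 and 19.6 CPM in Runx2+/- vehicle, against 93.6, 90.9 and 51.5 CPM in Runx2+/- MS-275, which in Runx2+/- lay above every vehicle library.

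**Figure D3:**
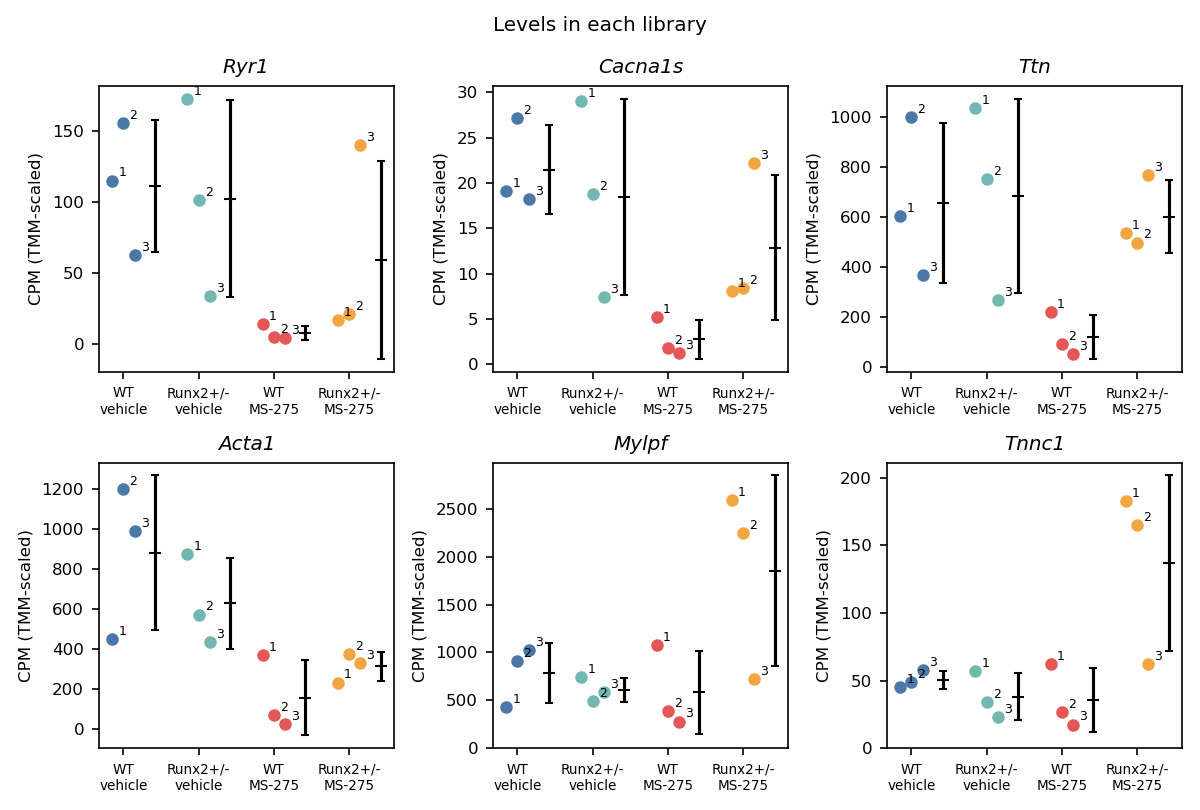
CPM (TMM-scaled, linear axis) of Ryr1, Cacna1s, Ttn, Acta1, Mylpf and Tnnc1 in each library of the 4 groups. Points are libraries with their replicate number, and the bar beside each group is the mean with 1 SD (n = 3). Replicate 3 of Runx2+/- MS-275 is at 140 CPM for Ryr1 while replicates 1 and 2 are at 16.8 and 21.3 CPM, and the order is the opposite for Mylpf and Tnnc1.

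Ckm, the muscle creatine kinase that buffers ATP at the sarcomere, was at 101, 266 and 173 CPM in WT vehicle, against 153, 37.9 and 17.0 CPM in WT MS-275 (-1.38 ± 0.68, adjusted p = 0.128). It was at 204, 146 and 84.4 CPM in Runx2+/- vehicle, against 244, 276 and 249 CPM in Runx2+/- MS-275, all above the vehicle libraries (0.82 ± 0.67, adjusted p = 0.5). At the endplate, Chrng encodes the fetal gamma subunit of the acetylcholine receptor, which the epsilon subunit replaces after birth, and Chrna1 the alpha subunit that binds acetylcholine. Chrng was at 16.8, 15.9 and 14.4 CPM in WT vehicle, against 5.21, 1.31 and 0.690 CPM in WT MS-275, and at 24.0, 9.82 and 6.21 CPM in Runx2+/- vehicle, against 7.43, 8.78 and 17.8 CPM in Runx2+/- MS-275. It fell in WT (-2.68 ± 0.73, adjusted p = 0.0434) and in the average (-1.46 ± 0.49, adjusted p = 0.0391). Chrna1 was at 15.5, 13.7 and 13.7 CPM in WT vehicle, against 7.68, 3.11 and 1.81 CPM in WT MS-275, and it fell in WT (-1.76 ± 0.54, adjusted p = 0.0476). In Runx2+/- it was at 20.7, 9.77 and 5.71 CPM with vehicle and 16.3, 13.3 and 16.1 CPM with MS-275 (0.34 ± 0.52, adjusted p = 0.726). Both subunits were separate in WT and overlapped in Runx2+/-.

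Between the vehicle libraries of the 2 genotypes no difference was detected in these genes. No member was called (edgeR, 0% of all genes called in either direction), 0 of 43 had an unadjusted p under 0.05 against 0.306% of all genes, and DESeq2 and limma-voom called 0 as well. The median was -0.25 with 38 of 43 below 0. Leaving out 1 library gave medians of -0.60 (without Runx2+/- vehicle replicate 1) to 0.06 (without WT vehicle replicate 2, with 21 of 43 below 0). The median was -0.02 with 23 of 44 below 0 without Runx2+/- vehicle replicate 3, and 0.0010 with 22 of 44 below 0 without the 3 libraries that stood apart, so the lean to lower values rested on these libraries. With the replicate number as a block it was -0.37 with 42 of 43 below 0 and 0 called. In no member were the 2 vehicle groups separate, against 2.09% of all genes lower and 2.69% higher.

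With MS-275, the members were at higher levels in Runx2+/- than in WT, short of the threshold. No member was called by edgeR or limma-voom, as was true of all genes (0%), while DESeq2 called 14 higher (32.6% against 3.14% of all genes). In all, 42 of 43 had a log2 fold change above 0, with a median of 1.72 against 0.05 over all genes, and 32 (74.4%) had an unadjusted p under 0.05 against 15.8% of all genes. All 3 Runx2+/- libraries lay above all 3 WT libraries in 22 members, 51.2% against 9.13% of all genes, and below them in 0 members, against 7.52%. Examples were Ryr1 (2.94 ± 0.91), Myh7 (2.68 ± 0.92), Ttn (2.30 ± 0.63), Cacna1s (2.22 ± 0.65), Chrng (2.22 ± 0.72), Myh3 (2.08 ± 0.81) and Actc1 (1.91 ± 0.66), of which the lowest adjusted p was 0.265. The exception in sign was Actn3 (-0.11 ± 0.32). Of these examples Ryr1, Ttn, Cacna1s and Chrng were highest, within Runx2+/- MS-275, in replicate 3, which lay among the vehicle libraries on the first principal component. For Ryr1 that group had a mean of 59.4 CPM and an SD of 69.9. Myh7, Myh3 and Actc1 were highest in replicate 2. The median was lowest without WT MS-275 replicate 3 (1.35) and highest without WT MS-275 replicate 1 (2.75). Without the 3 libraries that stood apart it was 1.72, against -0.02 over all genes, with 0 of 44 members below 0 and 0 called.

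The difference between the genotypes in the response to the drug was tested directly, by subtracting the log2 fold change in WT from that in Runx2+/-. It was above 0 in 43 of 43 members, against 54.5% of all genes, with a median of 2.03 against 0.06. No member passed the threshold (edgeR, lowest adjusted p = 0.873, 0% of all genes called), 22 of 43 (51.2%) had an unadjusted p under 0.05 against 5.3% of all genes, and DESeq2 and limma-voom called no member. The values ran from 0.20 to 3.06, with Ryr1 highest (3.06 ± 1.22) and Tpm3, Tpm1 (0.37 ± 0.46) and Actn3 (0.37 ± 0.45) lowest. Without the 3 libraries that stood apart the median was 1.65, against -0.04 over all genes. In that fit 0 of 44 members were below 0 and 0 were called, as was true of all genes (0%). The value of Ryr1 leaned on replicate 3 of Runx2+/- MS-275. Without the 3 libraries the log2 fold change of Ryr1 in Runx2+/- was -2.90, while in WT it was -4.61 to -3.52 over the alternatives. The members were read in the same 12 libraries and are not independent replicates.

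**Figure D4:**
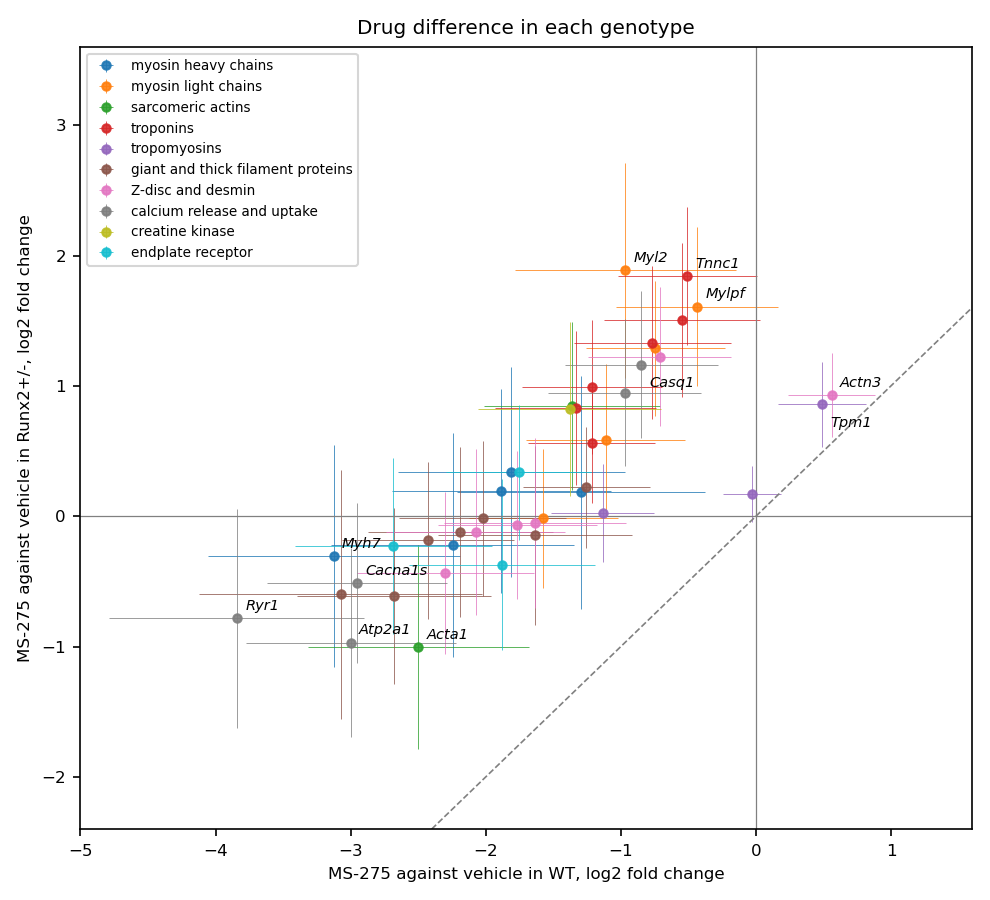
Log2 fold change of MS-275 against vehicle in WT (x axis) and in Runx2+/- (y axis) for the 43 tested genes, colored by role, with bars of 1 SE, and the dashed line where both are equal. Every point lies above the line, and Ryr1, Atp2a1 and Acta1 sit at the lower left while Myl2, Tnnc1 and Mylpf sit at the top.

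The order of the members was alike in the 2 genotypes, although the values were shifted. The 2 drug differences, which share no library, had a Spearman rho of 0.88 and a Pearson r of 0.79 across the 43 members, beside 0.81 and 0.71 across the 17967 genes, so the likeness was close to that of all genes. These are correlations across genes, which are not independent replicates, and both differences come from 1 fit. The 6 lowest members in Runx2+/-, which were Acta1, Atp2a1, Ryr1, Neb, Mybph and Cacna1s, were all among the 8 lowest in WT, and Tnnc1, Mylpf and Tnni2 were among the 6 highest in both.

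The unequal response showed within single libraries as ratios between genes. These pairs were chosen after their values were seen and carry no test, and whether both genes of a pair were read from muscle alone was not tested. The log2 ratio of Ryr1 to Casq1 was 0.77 to 2.15 in the 6 vehicle libraries and -2.48 to -1.11 in 5 MS-275 libraries, and 1.44 in replicate 3 of Runx2+/- MS-275. These CPM are not divided by length, so the sign of the ratio does not tell which transcript was scarcer. Per kilobase, Ryr1 was below Casq1 with vehicle too (means of 5.09 against 20.5 in WT and 4.70 against 18.0 in Runx2+/-). The ratio of channel to store protein was thus lower in those 5 libraries, of both genotypes, than in the vehicle libraries. Cacna1s against Trdn, a triad gene outside the 45 that anchors calsequestrin to the ryanodine receptor, was -0.98 to 0.60 with vehicle and -3.19 to -2.46 in the same 5 libraries, and -0.42 in the other. Atp2a1 against Casq2 was -1.58 to -0.66 with vehicle, -3.79 to -2.65 in the 5 and -1.01 in the other. For Acta1 against Actc1 the vehicle range was 0.08 to 0.99 and all 6 MS-275 libraries were lower, at -1.91 to -0.23. WT MS-275 replicate 1, whose summed level was that of a vehicle library, thus had the ratios of the MS-275 group.

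**Figure D5:**
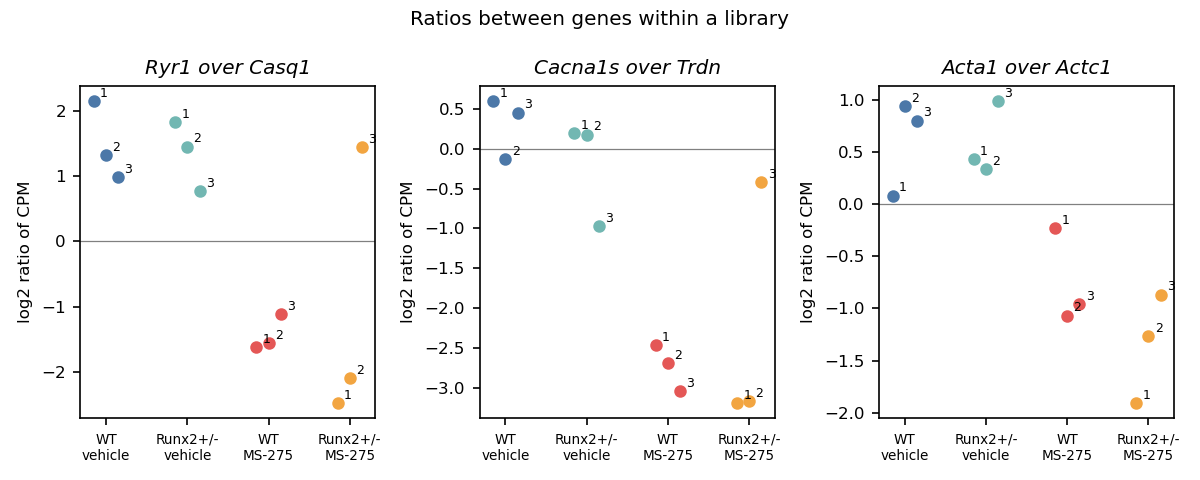
Log2 ratio of the CPM of 2 genes within each library (y axis) for Ryr1 over Casq1, Cacna1s over Trdn and Acta1 over Actc1, by group (x axis); points are libraries with their replicate number. The MS-275 libraries lie below the vehicle libraries in each panel, apart from replicate 3 of Runx2+/- MS-275 in the panels of Ryr1 and Cacna1s.

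A property the list did not use was transcript length, examined after the values were seen. Across the 43 members the log2 fold change had a Spearman rho of -0.47 with exon length in WT and -0.47 in Runx2+/-, as a description with no test. Over all genes it was -0.09 and -0.16. The 15 members with 5000 or more exon bases, among them Ttn, Neb, Ryr1 and the heavy chains, had a median of -2.19 in WT and -0.12 in Runx2+/-. The 14 members under 2500 bases, among them Mylpf, Tnnc1, Tnnt3 and Acta1, had medians of -1.04 and 1.01. The 77 tested genes of the other muscle lists did not show this in WT (rho 0.06) and showed -0.33 in Runx2+/-. The log2 difference between the vehicle groups, Runx2+/- minus WT, had a rho of 0.68 with length across the members. It was 0.58 across the 77 genes of the other muscle lists, so it was not particular to the members, and 0.15 over all genes. The share of uniquely aligned reads assigned to no gene, which reads from introns and intergenic sequence enter, was 10.5% to 16.8% in the vehicle libraries, 5.21% to 8.65% in 5 MS-275 libraries and 22.2% in replicate 3 of Runx2+/- MS-275. Its part in these relations was not tested.

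By fiber class, the embryonic and perinatal genes (Myh3, Myh8, Myl4, Actc1, Tnnt2, Chrng) had 1 of 6 lower in WT, with a median of -1.62. The fast genes had 1 of 10 tested lower, Atp2a1, with a median of -0.98, and the slow genes 1 of 7, Myh7, with a median of -1.22. With 9.33% of all genes called lower in WT, a count of 1 in lists of this size is near the background. In Runx2+/- the medians were 0.52, 0.75 and 0.83 and none was called, so the 3 classes did not part in the direction of their medians.

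The 250 bases before the RefSeq start (GRCm38.p6) were searched on both strands for boxes that muscle promoters are known to use. Windows were found for 38 members, some with more than 1 start, and 7 had none (Actn3, Myom2, Myoz1, Neb, Tcap, Tnni2, Tnnt3). The E-box CANNTG, which myogenic basic helix-loop-helix factors bind, was in 84.1% of 44 member windows against 66.2% of all 32851, and its form CAGCTG, a part of the first count, in 45.5% against 13%. The CArG box was in 15.9% against 1.47%, the MEF2 box in 11.4% against 2.92% and TATAAA in 20.5% against 12.4%. A match is a description of letters and shows no binding, and no match, as in Ryr1, says only that the letters are absent from that window. A member that fell in WT and a member that did not are shown for contrast, both on the plus strand, with E-boxes in capitals. They are Chrng at chr1:87205561-87205810 and Mylpf at chr7:127211358-127211607.
Chrng: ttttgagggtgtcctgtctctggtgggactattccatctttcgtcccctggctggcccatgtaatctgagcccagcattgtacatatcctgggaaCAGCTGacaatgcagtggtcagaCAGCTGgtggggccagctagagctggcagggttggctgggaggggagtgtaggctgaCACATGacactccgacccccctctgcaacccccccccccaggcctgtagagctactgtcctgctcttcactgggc
Mylpf: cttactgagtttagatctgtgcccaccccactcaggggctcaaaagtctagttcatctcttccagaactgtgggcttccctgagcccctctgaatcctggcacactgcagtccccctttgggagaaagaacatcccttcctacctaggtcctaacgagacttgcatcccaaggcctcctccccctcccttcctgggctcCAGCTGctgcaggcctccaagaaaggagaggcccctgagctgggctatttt
Chrng holds 3 E-boxes, which begin 155, 132 and 75 bases before the start, and Mylpf holds 1, 51 bases before it. Both genes thus carry the CAGCTG form, although Chrng fell with MS-275 in WT and Mylpf did not pass the threshold there (-0.44 ± 0.60).

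Genes that work beside the members were counted from lists, each given whole. Of the 77 tested in 6 lists, 27 were lower and 1 higher in WT (35.1% lower, against 9.33% of all genes), none was called in Runx2+/-, and 28 were lower (36.4% against 18%) and 5 higher in the average. Of other sarcomere and Z-disc genes 8 of 22 were lower in WT, with the actin-binding repair protein Xirp1 (-3.02 ± 0.68) at the smallest p. Those lower in the average included Xirp1 (-2.09), Synpo2l (-1.60), Myom3 (-1.45), Nrap (-1.34), Pdlim3 (-1.24) and Flnc (-0.59). Of the triad and membrane excitation genes 7 of 16 were lower in WT, with the muscle sodium channel Scn4a (-3.72 ± 0.88) at the smallest p. In the average 7 were lower, namely Scn4a (-2.41), the chloride channel Clcn1 (-2.02), the junctophilins Jph2 (-1.06) and Jph1 (-0.99), the channel subunits Cacnb1 (-1.04) and Cacna2d1 (-0.67) and the coupling adaptor Stac3 (-0.95), and the calcium-binding protein Hrc was higher (1.37).

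The endplate list had the greatest share of calls, with 6 of 8 tested genes lower both in WT and in the average. They were the receptor subunits Chrnb1 (-2.35 in WT, -1.36 in the average) and Chrnd (-2.89, -1.76), the receptor clustering proteins Rapsn (-2.74, -1.57) and Dok7 (-2.97, -1.81), the nerve-derived signal Agrn (-1.73, -1.08) and acetylcholinesterase Ache (-3.77, -2.51). Ache had 171 and 76 counts in replicates 3 of WT and Runx2+/- vehicle, and 499 in replicate 3 of Runx2+/- MS-275. The neuronal gene Snap25 had 122, 463 and 1812 counts in the same libraries. Whether the endplate genes were read from muscle alone was not tested. Of muscle metabolism 2 of 10 were lower in WT, Pygm (-1.54) and Pgam2 (-1.69), and 3 in the average, Pygm (-1.04), Pgam2 (-1.09) and Pvalb (-1.88). Of the dystrophin complex none of 8 was lower, and Sgcd was higher in the average (1.51).

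Among the myogenic regulators, which commit cells to muscle and make them fuse, 4 of 13 were lower in WT: Pax3 (-4.45), Pax7 (-3.09), Myod1 (-2.54) and the fusion protein Mymk (-2.51). Pax3 had 46 and 63 counts in replicates 3 of WT and Runx2+/- vehicle. In Runx2+/- MS-275 it had 8, 10 and 279 counts, and the tissue it was read from was not tested. In the average Pax3 (-2.58), Pax7 (-1.94), Myod1 (-1.997), Mymk (-1.56) and Mef2d (-0.54) were lower and Mef2a (0.47) and Mef2c (0.72) higher. Pax7, the mark of muscle stem cells, was at 6.46, 6.69 and 10.3 CPM in WT vehicle, against 2.02, 0.491 and 0.173 CPM in WT MS-275, and at 8.05, 4.56 and 3.26 CPM in Runx2+/- vehicle, against 1.67, 2.23 and 5.14 CPM in Runx2+/- MS-275. The WT groups did not overlap and the Runx2+/- groups did, with replicate 3 of Runx2+/- MS-275 highest of its group. Myod1, the determination factor, was at 7.70, 6.98 and 14.3 CPM in WT vehicle, against 3.26, 1.31 and 0.345 CPM in WT MS-275, and at 10.7, 4.26 and 3.97 CPM in Runx2+/- vehicle, against 2.88, 1.68 and 2.35 CPM in Runx2+/- MS-275, with no overlap in either genotype. Myog, which drives differentiation, was at 37.6, 34.4 and 58.0 CPM in WT vehicle, against 28.3, 7.53 and 2.67 CPM in WT MS-275 without passing (-1.75 ± 0.68, adjusted p = 0.075), and in Runx2+/- it was at 47.9, 20.4 and 19.1 CPM with vehicle and 35.9, 30.3 and 26.9 CPM with MS-275.

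Markers of other tissues also differed between these libraries, in part out of step with the muscle genes. In WT 9.33% of all genes were called lower and 9.67% higher, so a count of 1 in lists of this size is near the background. In the average 21.1% of all genes were called higher. The summed level of 8 epidermal genes was 1161 to 4065 CPM in the 6 vehicle libraries, 8.17 to 17.6 CPM in 5 MS-275 libraries and 1748 CPM in replicate 3 of Runx2+/- MS-275, and all 8 were lower in WT. Replicates 1 and 2 of Runx2+/- MS-275, with 12484 and 12847 CPM of the 45 muscle genes, were among those 5. The 8 lens genes held 70.6 to 1105 CPM with vehicle, 52.4 to 126 CPM in the 5 and 750 CPM in that replicate, and 1 was lower in WT. Most of the sum in WT MS-275 was 1 gene, Cryab, with a mean of 51.7 CPM there. Bfsp1 was at a mean of 6.88 CPM in that group and the rest of the list at 1.32 CPM or less each. The 8 neuronal genes held 107 to 1678, 26.5 to 283 and 940 CPM, with 2 lower in WT. The 8 osteoblast genes went the other way, at 4234 to 12125 CPM with vehicle, 25621 to 51303 CPM in the 5 and 1713 CPM in that replicate, with 6 higher in WT. The 5 tendon genes held 124 to 244, 582 to 967 and 77.0 CPM, with 2 higher in WT, and the 8 smooth muscle genes 129 to 237, 174 to 339 and 176 CPM, with none called in WT and 1, Tagln, higher in the average (1.48). The 7 tested adipocyte genes had 1 lower in WT. The 6 erythroid genes held 1905 to 6306 CPM with vehicle, 3839 to 20793 CPM in the 5 and 1744 CPM in that replicate, with 1 lower and 4 of 6 above 0 in WT (median 0.88). The labels do not say how much skin, muscle or other tissue each calvaria carried, and the part of tissue makeup in the muscle results was not tested.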

How the data were processed

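RNA-seq counts of 12 mouse calvaria libraries were used. The deposited values are whole-number read counts per Ensembl gene from HTSeq, after Trimmomatic, Bowtie2 and SAMtools, per the submitters' processing notes, which state no versions. The build they name, GRCh38.p7, is human, while the identifiers are mouse. The 5 summary entries of each file, which name no gene, stayed out of library sizes. They held 5.21% to 22.2% of uniquely aligned reads as assigned to no gene.

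Genes were kept by filterByExpr (17967) and scaled by TMM (factors 0.598 to 1.33). One fit with 4 group means was made over 12 libraries by the edgeR 4.0.16 quasi-likelihood F test, robust, on 8 residual degrees of freedom, and p-values were adjusted by Benjamini-Hochberg within a comparison at a threshold of 0.05. Values written a ± b after a log2 fold change are the estimate and its standard error. An exact permutation test of 3 against 3 cannot give a p below 0.1, so none was run. The labels do not say what a replicate number shares. Deviations of same-numbered libraries from their group means correlated above 0.1 in all 3 pairs between the vehicle groups of the 2 genotypes (0.220, 0.752 and 0.812), and not in all 3 pairs of any other 2 groups. Over all groups, 18 of 36 pairs with unlike numbers also did, WT vehicle 1 with Runx2+/- vehicle 2 (0.679) among them. The numbers are therefore not shown to pair libraries. The scripts were tested on simulated data with less spread than these libraries and with no library standing apart. That check therefore does not show how well calls hold here. Alternatives were scaling by library size, RLE factors, DESeq2 1.42.0, limma-voom (limma 3.58.1), no filter, a replicate block and leaving out libraries. R 4.3.3 and Python 3.11.15 were used, with positions from GENCODE M21 (GRCm38).

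Members and lists were chosen with earlier results of these data known. In each role the member with the highest level per length and that with the smallest p in WT were given in every library, with every member past the threshold in any comparison. Of the other lists, the gene with the smallest p in WT, those past the threshold in the average, and Pax7, Myod1 and Myog were named. Some genes of those lists are not reported here by name. Other genes named were chosen after their values were seen.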

Additional observations from a re-analysis of the deposited data

How the results depend on the processing

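Directions held more often than calls. In WT the count of members lower, 11 in the fit described, was 31 with scaling by library size (72.1% against 39.0% of all genes), 24 with DESeq2 (55.8% against 21.7%), 21 without the 3 libraries that stood apart (47.7% against 31.8%), and 0 with limma-voom, with no filter on low counts and with the replicate block. Leaving out 1 library gave 0 to 20. All genes called lower fell to 1 with limma-voom and to 0 with no filter and with the block. In Runx2+/- DESeq2 called 2 members higher (4.65% against 4.52% of all genes). Leaving out 1 library gave 0 to 1 lower (at most 2.27% against 14.2%) and 0 to 7 higher (at most 15.9% against 18.5%). Leaving out the 3 libraries gave 2 lower (4.55% against 28.9%) and 3 higher (6.82% against 23.9%). In the average the 9 lower became 22 by library size (51.2% against 45.3%), 14 with DESeq2 (32.6% against 24.4%), 4 with the replicate block (9.3% against 9.46%) and 19 without the 3 libraries (43.2% against 38.2%), with 2 to 20 over single libraries left out. The 2 higher became 0 by library size (against 4.74% of all genes), 0 with no filter (against 9.57%) and 1 with the block (2.33% against 14.9%). Over single libraries left out they were 0 to 3, the 3 being 6.82% against 28.2% of all genes. Runx2+/- against WT with MS-275 gave 14 higher with DESeq2 (32.6% against 3.14% of all genes). Tpm1 in the average was -0.029 by library size, the setting that moved the median of all genes in WT from -0.13 to -0.95 and the split of all calls from 1676 lower and 1738 higher to 7009 and 526. The causes of these changes were not tested, and leaving out a library changes both the number and the identity of those that remain. No other called member changed sign under an alternative, and the 11 lost their calls in WT under 11 or 12 of the 19 alternatives each.

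Without division by length, the share of Myh3 was 51.0%, 49.2%, 56.5% and 56.7% in WT vehicle, Runx2+/- vehicle, WT MS-275 and Runx2+/- MS-275, and that of Myh8 46.0%, 47.5%, 41.4% and 40.7%. In the same order Tnnt3 was 78.3%, 79.997%, 82.2% and 87.4% of troponin T and Tnni2 64.4%, 68.5%, 78.9% and 74.0% of troponin I.

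The labels number replicates 1 to 3 in every group, and 6 of 18 pairs with a shared number had deviations that correlated above 0.1 (-0.66 to 0.81). So did 18 of 36 pairs with unlike numbers (-0.83 to 0.68). Over all groups that measure therefore does not show that the numbers pair libraries. For the 2 vehicle groups it does not decide. All 3 pairs with a shared number were above 0.1 there (0.220, 0.752 and 0.812). Of the pairs with unlike numbers, WT vehicle 1 with Runx2+/- vehicle 2 (0.679) and WT vehicle 2 with Runx2+/- vehicle 1 (0.272) were too, and the rest were below 0. Between the vehicle groups the block changed no call. Depth limits Myh4 and Tnnc2, which were near the floor of 3 counts.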
